A study of Caenorhabditis elegans with 2 samples.

Results

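The glycolytic enzyme genes described here are 10 genes of the nematode C. elegans that encode steps of glycolysis, with the paralogues (related copies within the genome) of 2 of those steps. They are gpi-1, aldo-1, aldo-2, tpi-1, gpd-1, gpd-2, gpd-3, gpd-4, pgk-1 and enol-1. They were taken by name from 19985 annotated protein-coding genes, and all 10 names were found in the annotation. No cut on signal was used, but earlier results of these data were known when they were chosen. Described here are where HRDE-1 sites lie at these genes, how strong they are beside those of other genes, and how they are spread over near-identical copies.

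Chromatin immunoprecipitation followed by sequencing (ChIP-seq) recovers DNA that lies close to a chosen protein in fixed chromatin. The protein was HRDE-1, also named WAGO-9, a nuclear Argonaute protein of the germline. The animals were whole young adult hermaphrodites of the strain YL557, which carries a transgene for HRDE-1 with GFP and FLAG tags at its C-terminus. They were harvested 48 hours after starved L1 larvae, synchronised by bleaching, were released onto food. By the sample description the precipitation used an antibody to GFP, although hrde-1 is what the labels enter as the antibody. There was 1 group with 2 biological replicates, no other genotype or treatment, and the control behind the peak calls was not analysed here, so conditions could not be compared and no test was made. Whole animals were used, so the tissue from which a site comes cannot be told apart.

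Glycolysis converts glucose to pyruvate in the cytosol. Glucose-6-phosphate isomerase reshapes the phosphorylated sugar, aldolase splits it into a pair of triose phosphates, and triosephosphate isomerase interconverts them. Glyceraldehyde-3-phosphate dehydrogenase, phosphoglycerate kinase and enolase act on the trioses on the way to pyruvate, and the steps named here also run in reverse during gluconeogenesis. HRDE-1 is known for binding small RNAs of the 22G class and for carrying inherited silencing of the matching genes in the germline.

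The authors deposited ranked lists of candidate sites, 1 for the pooled reads and 1 for each replicate. Another list holds the sites that passed their limit on the irreproducible discovery rate (IDR), and its members are called IDR peaks below. This rate is a measure of how far sites are ranked alike in replicates. Each site has a summit, the base of highest enrichment, and a signal, the authors' own score, whose scale is not stated and which was compared only within a list. There were 1341 IDR peaks, 30000 pooled candidates, 24269 candidates in replicate 1 and 30000 in replicate 2. The IDR peaks were the strongest pooled candidates, with signals of 73.95 or more. The list thus follows the pooled signal, and being in it does not by itself show that a site ranked alike in both replicates. The gene hrde-1 itself had an IDR peak with a signal of 327.6, rank 24 in that list, although the transgene carries the same sequence. A site was assigned to a gene when its summit lay in the gene or within 500 bp of either end, a span called the window below, so that 1 summit can count for several neighbouring genes.

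Of the 10 glycolytic genes, 4 had an IDR peak in the window. These were gpi-1, aldo-2, gpd-1 and enol-1, against 8.23% of all protein-coding genes. The other 6 had none. Among the 4 gpd genes only gpd-1 had one, and of the 2 aldolase genes only aldo-2. The plot of summits along each gene shows all sites.

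**Figure D1:**
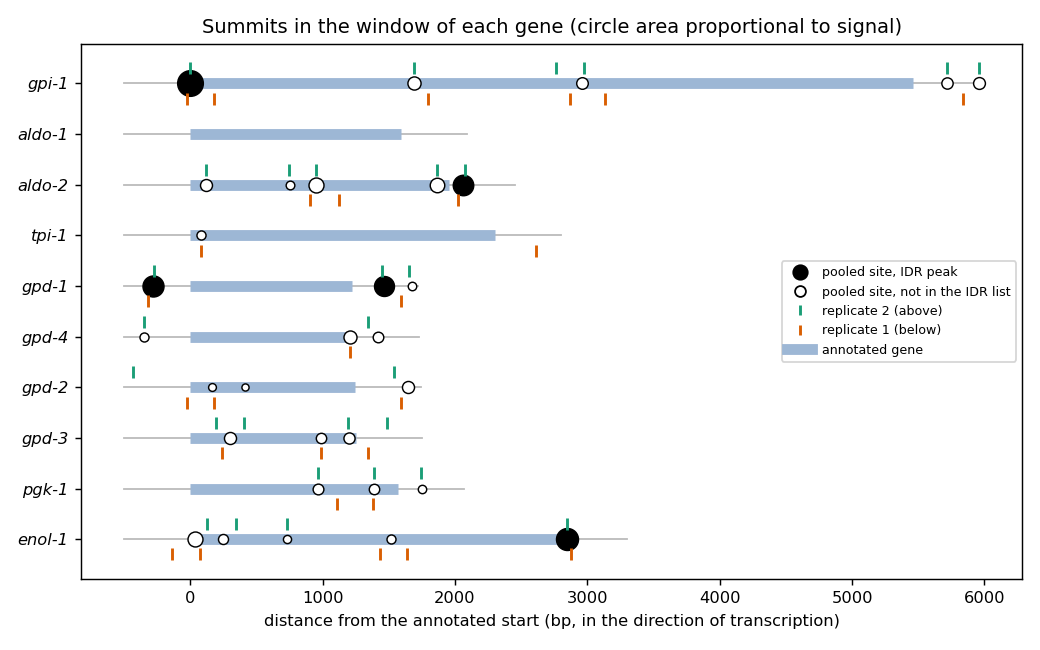
Summits in the window of each of the 10 genes, with the distance from the annotated start in bp on the horizontal axis. Circles are pooled candidates with area proportional to signal, filled where the site is an IDR peak, and ticks above and below mark the summits of replicate 2 and replicate 1. The 5 filled circles lie at the start of gpi-1, on both sides of gpd-1, and past the 3′ ends of aldo-2 and enol-1, and none lies deep inside a gene.

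The DNA under these peaks is shown for gpd-1, together with the matching stretch of its near-identical copy gpd-4, and for enol-1, the strongest of the peaks past a 3′ end. All sequences are from the RefSeq copy of the ce11 (WBcel235) genome, on the plus strand, which is the coding strand of these 3 genes, and lie outside the annotated exons. The stretch before gpd-1 is chrII:10393699-10393998, that before gpd-4 is chrII:10170838-10171137, that past gpd-1 is chrII:10395450-10395649, and that past enol-1 is chrII:8933800-8933999. Capitals mark the pooled summit with 10 bases on either side, except in gpd-4, where they mark the base that aligns with the summit of gpd-1, with 10 bases on either side.
gpd-1 upstream: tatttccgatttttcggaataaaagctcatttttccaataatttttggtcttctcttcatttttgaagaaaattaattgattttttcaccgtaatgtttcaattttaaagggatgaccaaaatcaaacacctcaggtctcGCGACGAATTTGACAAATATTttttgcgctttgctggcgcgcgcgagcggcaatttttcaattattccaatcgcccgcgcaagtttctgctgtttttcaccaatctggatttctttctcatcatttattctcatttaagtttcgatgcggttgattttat
gpd-4 upstream: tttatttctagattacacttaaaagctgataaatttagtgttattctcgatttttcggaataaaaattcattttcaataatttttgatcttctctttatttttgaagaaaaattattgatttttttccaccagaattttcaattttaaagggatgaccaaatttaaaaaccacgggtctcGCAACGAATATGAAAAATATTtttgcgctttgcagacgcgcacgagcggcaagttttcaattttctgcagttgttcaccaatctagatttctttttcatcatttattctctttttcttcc
gpd-1 downstream: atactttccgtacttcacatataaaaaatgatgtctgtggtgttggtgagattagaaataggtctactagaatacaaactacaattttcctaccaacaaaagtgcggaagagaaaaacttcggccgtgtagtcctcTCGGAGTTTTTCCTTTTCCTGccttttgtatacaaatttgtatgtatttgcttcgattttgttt
enol-1 downstream: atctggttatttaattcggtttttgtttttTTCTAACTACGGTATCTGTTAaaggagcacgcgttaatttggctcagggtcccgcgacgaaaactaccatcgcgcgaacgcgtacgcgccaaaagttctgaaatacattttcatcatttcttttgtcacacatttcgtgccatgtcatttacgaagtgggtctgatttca

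The gpd genes differ far less in the sequence that they encode than in these flanks. The first 120 coding bases are printed for the 4 genes, read along the coding strand, at chrII:10394137-10394256 for gpd-1 and chrII:10171280-10171399 for gpd-4 on the plus strand, and at chrX:3114568-3114687 for gpd-2 and chrX:3113202-3113321 for gpd-3 on the minus strand. Capitals mark bases that differ from gpd-1, of which gpd-4 has 1, gpd-2 has 22 and gpd-3 has 22, while gpd-3 differs from gpd-2 at 3 bases.
gpd-1 coding: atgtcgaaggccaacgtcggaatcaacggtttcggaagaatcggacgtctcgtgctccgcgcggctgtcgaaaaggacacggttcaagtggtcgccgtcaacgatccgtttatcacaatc
gpd-4 coding: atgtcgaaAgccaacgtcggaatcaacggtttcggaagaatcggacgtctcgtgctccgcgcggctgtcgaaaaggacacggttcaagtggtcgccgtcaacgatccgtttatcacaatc
gpd-2 coding: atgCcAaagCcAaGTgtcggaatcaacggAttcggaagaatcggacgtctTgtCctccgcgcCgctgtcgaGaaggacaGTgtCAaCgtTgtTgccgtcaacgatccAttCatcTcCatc
gpd-3 coding: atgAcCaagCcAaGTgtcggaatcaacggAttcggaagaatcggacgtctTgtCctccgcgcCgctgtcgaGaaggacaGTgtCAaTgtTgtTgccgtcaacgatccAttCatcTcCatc

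The gene gpi-1 encodes glucose-6-phosphate isomerase and spans 5464 bp of chromosome I, from 13576148 to 13581611 on the plus strand. It had the strongest site of the 10 genes, an IDR peak with a pooled signal of 183.7, rank 127 of the pooled list. Its summit, at 13576149, lay 1 bp from the annotated start, in the 5′ UTR. The same summit lay 344 bp past the 3′ end of nyn-2, the next gene upstream on the same strand. The site is thus at a gene start and also within 500 bp of another gene's end. Replicate 2 had its summit at the same base, with a signal of 132.7 and rank 141, and replicate 1 had its own 26 bp away, with a signal of 48.2 and rank 214. Ordered by the highest signal in the window, gpi-1 was in the top 0.866% of protein-coding genes in the pooled list, the top 1.52% in replicate 1 and the top 0.976% in replicate 2. Further inside gpi-1 the pooled candidates were much lower, at 48.3 and 37.5 in coding exons, and another 2 past the 3′ end had 35.6 and 39.0. The pooled interval of the site at the start was 136 bp wide, narrower than the 456 bp of these weaker candidates.

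Aldolase is encoded by aldo-1 and aldo-2, which lie apart on chromosome III and are diverged copies, with 67.0% identity over the aligned coding sequences and a longest shared run of 20 bp. The gene aldo-2 lies at 5874673 to 5876625 on the minus strand and had an IDR peak with a pooled signal of 116.9, rank 428. The summit, at 5874563, lay 110 bp past its 3′ end. F01F1.3, which is transcribed toward aldo-2, overlaps that end, and the summit lay in a coding exon of F01F1.3, 143 bp before its 3′ end, so the site cannot be assigned to either gene. The nearest summits were 39 bp away in replicate 1, with a signal of 45.0 and rank 262, and 12 bp away in replicate 2, with a signal of 75.0 and rank 652. Both replicates therefore had the site among their 1341 strongest candidates. Inside aldo-2 the pooled list had 4 more candidates, the highest with a signal of 62.7 in a coding exon 950 bp from the start and another with 58.7 in the 3′ UTR.

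The other aldolase gene, aldo-1, lies at 13563346 to 13564937 on the minus strand and had no candidate in the window in any of the lists. The nearest summits lay past its 3′ end, at 1644 bp in the pooled list, 1354 bp in replicate 1 and 1650 bp in replicate 2. No word of 36 bp occurs more than once in the genome within aldo-1 or aldo-2. The lists keep only ranked candidates, so aldo-1 lies below the lowest pooled signal of 14.2 and is not shown to lack signal.

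The gene tpi-1 encodes triosephosphate isomerase and lies at 12036835 to 12039139 of chromosome II on the minus strand. Its 1 pooled candidate had a signal of 23.1, close to the median of 23.0 over that list, and lay in a coding exon 85 bp from the start. Replicate 1 had a summit 3 bp from it with a signal of 13.4, rank 6559. Replicate 2 had no candidate in the window, and its nearest summit lay 646 bp past the 3′ end. The site at tpi-1 thus rests on replicate 1 and the pooled reads.

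Glyceraldehyde-3-phosphate dehydrogenase is encoded by 4 genes in 2 close pairs. The genes gpd-1 and gpd-4 lie apart on chromosome II and have 99.0% identical coding sequences, with 10 differences over 1023 bases, and their predicted proteins differ at 2 of 341 residues. The genes gpd-2 and gpd-3 lie next to each other on chromosome X, in an operon (a cluster transcribed together) with mai-1, and have 97.4% identical coding sequences and predicted proteins that differ at 1 residue. Between the pairs, coding identity was 78.9% to 79.5% and protein identity 87.4%. Copies as close as these can share sequencing reads, and how the authors treated reads that map to several places is not given in the sources used here.

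The gene gpd-1, at 10394129 to 10395349 on the plus strand, had an IDR peak on each side. The upstream summit, at 10393849, lay 280 bp before the start, 235 bp past the 3′ end of T09F3.2, and had a pooled signal of 122.9 and rank 373. The downstream summit, at 10395596, lay 247 bp past the 3′ end, 111 bp before the start of T09F3.4, and had a pooled signal of 110.8 and rank 507. All 3 genes are on the same strand, so each site lies between the end of a gene and the start of the next. For the upstream site, replicate 1 had a summit 39 bp away with a signal of 33.6 and rank 607, and replicate 2 had one 3 bp away with a signal of 88.3 and rank 406. For the downstream site, the summit of replicate 1 was 129 bp away with a signal of 37.7 and rank 457, and that of replicate 2 was 17 bp away with a signal of 87.6 and rank 418. The downstream site was the stronger in replicate 1, while the upstream site was slightly the stronger in replicate 2 and in the pooled list. No list had a candidate inside gpd-1. Both the start and the 3′ end had an IDR peak within 500 bp at 0.866% of protein-coding genes. In that share 1 peak can count for both ends of a short gene. Among the glycolytic genes, which are too long for this, only gpd-1 had a peak at each end.

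The copy gpd-4, at 10171268 to 10172498 on the plus strand, had no IDR peak. Its highest pooled candidate had a signal of 47.3 and rank 3367, with a summit 22 bp before the 3′ end, in the 3′ UTR. Another pooled candidate, with a signal of 31.3, lay 192 bp past the 3′ end, and the remaining one lay 349 bp before the start with 22.8. In replicate 1 the only candidate was 2 bp from the one in the 3′ UTR, with a signal of 11.1 and rank 10262. In replicate 2 the highest lay 117 bp past the 3′ end with a signal of 38.3 and rank 2972. Candidates past or near the 3′ end thus appeared in the pooled list and in both replicate lists. The upstream candidate was in the pooled list and in replicate 2, where it ranked 28613 of 30000, and not in replicate 1.

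The upstream flanks of gpd-1 and gpd-4 can be aligned, with 72.3% identity over the 500 bp before each start. The longest shared run there is 44 bp. The 301 bp around the upstream summit of gpd-1 had 264 bases aligned with gpd-4, and 232 were the same, 77.1% of the span. Read side by side without a gap, the 21 bases in capitals were the same at 18 positions and differed at 3. The counterpart of the gpd-1 summit lay 240 bp before the start of gpd-4. The nearest candidates to it had a signal of 22.8 at 109 bp in the pooled list and of 11.9 at 109 bp in replicate 2, and replicate 1 had none within 1000 bp. The stretch with a pooled signal of 122.9 at gpd-1 therefore had a related sequence at gpd-4 with a far lower listed signal. Past the 3′ ends the copies shared less, with 49.3% identity over 300 bp and a longest shared run of 14 bp. That is little above the 44.1% to 46.8% of the other gpd pairs over the same span.

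Words of 36 bp were counted on both strands of the genome to see where reads of about that length could be placed. Within gpd-1, 65.6% of such words occur more than once, against 65.1% within gpd-4, 36.1% within gpd-2 and 35.9% within gpd-3. With words of 50 bp the shares were 58.0% for gpd-1, 57.5% for gpd-4, 26.9% for gpd-2 and 26.8% for gpd-3. Repeated words were rare in the other glycolytic genes, at 3.94% of 36 bp words in gpi-1, 1.01% in tpi-1 and 0 in the other 4. The 301 bp around each of the 5 IDR summits held no repeated word of either length, so the peaks of gpd-1 lie in sequence that gpd-4 does not share word for word. The gpd-4 candidate in the 3′ UTR had 22.6% repeated 36 bp words around it, and the pooled candidates inside gpd-2 had 25.2% and 40.6%. Inside gpd-3 they had 14.7% at the site with a signal of 40.5, 24.8% at that with 30.0, and no repeated word at that with 34.5. The 4 gpd genes held the most repeated words of the 10 genes, and candidates inside them were missing, as in gpd-1, or had pooled signals of at most 47.3. Inside the other genes the highest pooled signals were 62.7 in aldo-2, 62.4 in enol-1, 32.2 in pgk-1 and 23.1 in tpi-1. In gpi-1 the highest was 183.7, at the summit 1 bp from the annotated start, and further inside it was at most 48.3. The gene aldo-1 had no candidate. Whether the treatment of repeated words lowered the signal in the gpd genes was not tested.

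**Figure D2:**
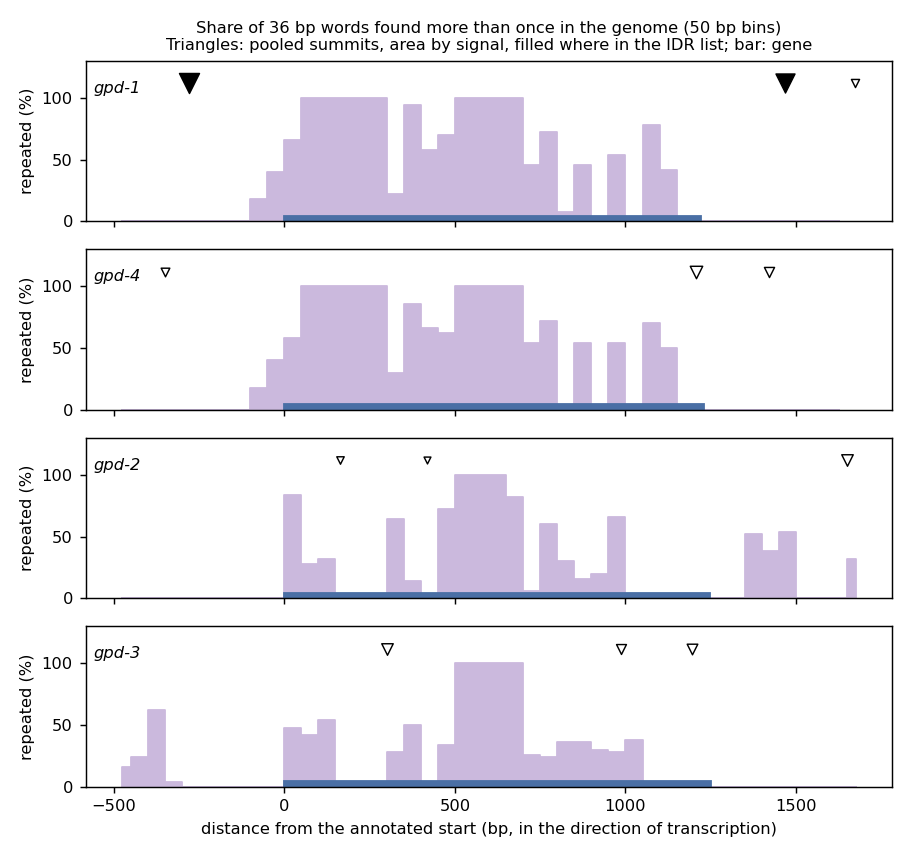
Share of 36 bp words that occur more than once in the genome, in bins of 50 bp along gpd-1, gpd-4, gpd-2 and gpd-3, against the distance from the annotated start in bp. Triangles are pooled summits with area by signal, filled for IDR peaks, and the bar marks the gene. The filled triangles of gpd-1 lie in flanks without repeated words, while 65.6% of the words within gpd-1 are repeated.

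The genes gpd-2, at 3113443 to 3114689, and gpd-3, at 3112091 to 3113341 of chromosome X, are on the minus strand and had no IDR peak. Their windows overlap, and the highest pooled candidate of both was the same site, with a signal of 40.5 and rank 4657. Its summit, at 3113040, lay in an intron of gpd-3, 301 bp from that gene's start and 403 bp past the 3′ end of gpd-2. Within gpd-2 itself the pooled candidates had signals of 17.0 and 14.3, near the lowest of the list. In gpd-3 the other pooled candidates had 30.0 in a coding exon and 34.5 in the 3′ UTR. The highest candidate of replicate 1 was 18.6 for gpd-3 (rank 2801) and 15.8 for gpd-2 (rank 4306). In replicate 2 it was 26.8 for gpd-3 (rank 6703), 240 bp past the 3′ end, and 19.9 for gpd-2 (rank 12756), 435 bp before the start. The replicates thus placed their highest site at different spots in both genes.

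The gene pgk-1 encodes phosphoglycerate kinase and lies at 3867541 to 3869109 of chromosome I on the plus strand. It had pooled candidates of 32.2 and 30.3 in coding exons and of 19.6 at 184 bp past the 3′ end. The highest of them, 966 bp from the start, had its summit at the same base in replicate 2, with a signal of 24.2 and rank 8373. In replicate 1 the highest candidate lay 1112 bp from the start, with a signal of 14.5 and rank 5326. No IDR peak lay within 500 bp, and the closest one, with a signal of 93.6, lay 859 bp before the start.

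The gene enol-1 encodes enolase and lies at 8930997 to 8933799 of chromosome II on the plus strand. Its IDR peak had a pooled signal of 134.9 and rank 286, with a summit at 8933840, 41 bp past the 3′ end and 542 bp before the start of the next gene, T21B10.3. This is the one peak of the 5 for which no other protein-coding gene had the summit in its window. Replicate 2 had its summit at the same base, with a signal of 89.5 and rank 395, and replicate 1 had one 35 bp away with a signal of 49.1 and rank 205. The pooled interval was 122 bp wide. A weaker pooled candidate of 62.4 lay near the start, 34 bp into the gene, and 3 others inside had 18.5 to 28.1.

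Signals of the 2 replicates are on different scales, so each gene was placed by its rank among all protein-coding genes in each replicate. The mean rank over the replicates was the top 1.25% ± 0.385 for gpi-1, 2.04% ± 0.82 for enol-1, 2.88% ± 0.276 for gpd-1 and 2.98% ± 1.64 for aldo-2 (SD, n = 2). These 4 genes overlap within their spread, apart from gpi-1 and gpd-1. The next genes were gpd-3 at 21.3% ± 8.49, gpd-4 at 25.7% ± 13.6, pgk-1 at 27.4% ± 5.23 and gpd-2 at 29.9% ± 12.9, and these too overlap one another. Between gpd-3 and the 4 genes with a peak there is a gap. The weakest rank of the 4 was 4.14%, that of aldo-2 in replicate 2. The strongest of the others was 15.3%, that of gpd-3 in replicate 1. The 4 genes were grouped by IDR peaks called from the same reads, so a separation is partly built in. For gpd-1 and gpd-4 the replicates did not overlap, with gpd-1 at 3.08% and 2.69% and gpd-4 at 35.3% and 16.1% in replicates 1 and 2.

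**Figure D3:**
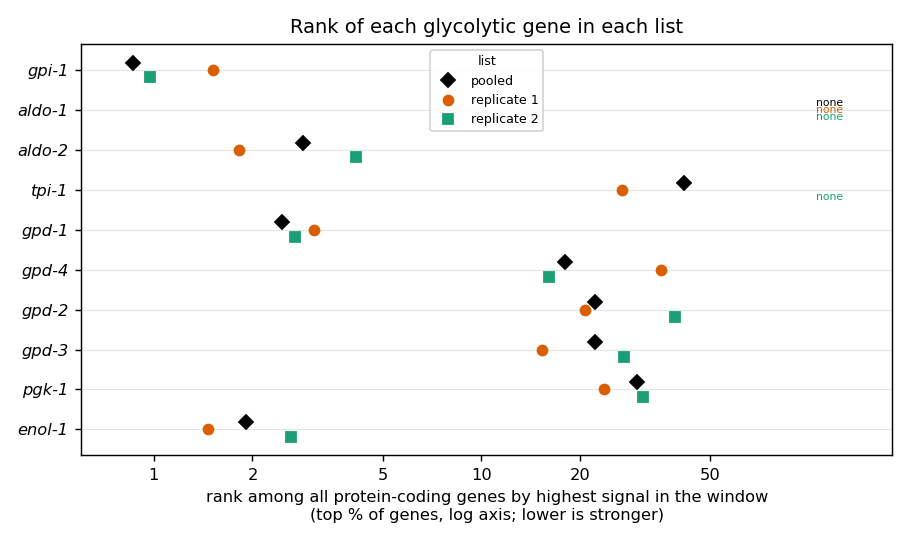
Rank of each glycolytic gene among all protein-coding genes by the highest signal in the window, as the top percentage of genes on a log axis, in the pooled list and both replicates. Genes run in pathway order, and "none" marks a list without a candidate. The genes gpi-1, aldo-2, gpd-1 and enol-1 stay at 4.14% or less in every list, and the others with a candidate lie at 15.3% or higher.

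The counts hold in each replicate alone. Among the 1341 strongest candidates of replicate 1, the windows of the same 4 genes held one, against 8.36% of protein-coding genes, and in replicate 2 the same 4 again, against 8.14%. These lists are not independent of the IDR list, which was made from both. Gene length did not change the background, since 8.32% of the protein-coding genes between 1221 and 5464 bp long, the range of the glycolytic genes, had an IDR peak. Weak candidates were common in the genome. A pooled candidate lay in the window of 9 of the 10 glycolytic genes, against 55.7% of protein-coding genes, and a candidate in both replicate lists in 8 of 10, all but aldo-1 and tpi-1, against 44.6%. Of the protein-coding genes with a pooled candidate, 14.8% had an IDR peak, while 4 of the 9 glycolytic genes did. The median of the highest pooled signal over all 10 genes, with aldo-1 placed last, was 43.9, against 17.7 over all protein-coding genes. The 10 genes are few and the gpd windows share a site, so these shares describe the genes and are not estimates for a class.

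**Figure D4:**
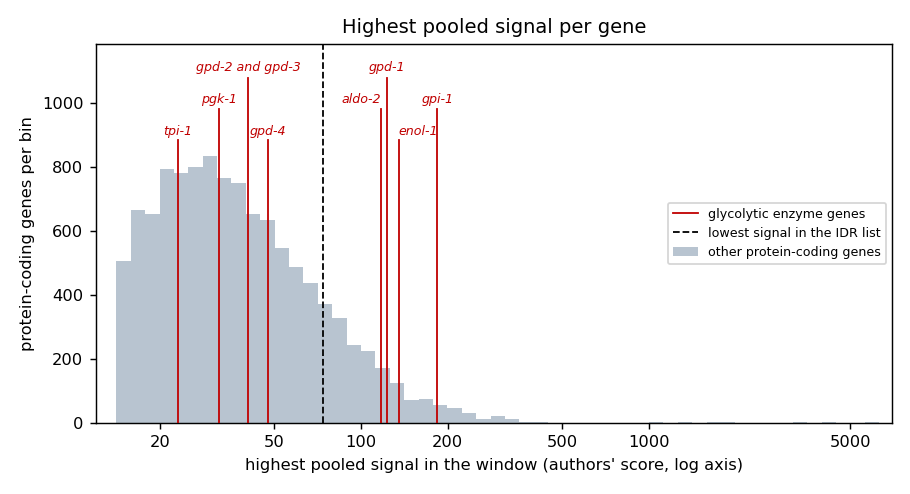
Highest pooled signal in the window for the 9 glycolytic genes that have one (red lines, named) and for the other protein-coding genes (bars, genes per bin), on a log axis of the authors' score. The dashed line marks 73.95, the lowest signal of an IDR peak. The lines fall into 5 genes between 23.1 and 47.3 and 4 genes between 116.9 and 183.7, with none between.

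The 5 IDR summits lay mostly at gene ends. An IDR peak lay within 500 bp of the start of gpi-1 and gpd-1, 2 of 10 glycolytic genes, against 2.96% of protein-coding genes. One lay within 500 bp of the 3′ end of aldo-2, gpd-1 and enol-1, 3 of 10, against 5.41%. Placed by the glycolytic gene alone, 1 of the 5 peaks was upstream, 1 inside and 3 downstream (60.0%). Among 1968 pairs of an IDR peak and a protein-coding gene, 22.0% were upstream, 35.2% inside and 42.8% downstream. Except at enol-1, each summit also lay in the window of another protein-coding gene, for which its place differed. Over all pooled candidates, the IDR peaks included, 20 of 31 pairs at glycolytic genes lay inside the gene (64.5%), against 65.9% of 33110 pairs at all protein-coding genes. No tRNA, snoRNA or snRNA gene lay within 1000 bp of any of the 5 summits. The GC content of the 301 bp around them was 32.2% to 36.9%, below the median of 38.2% over all nuclear IDR peaks. Soft-masked repeats covered 20.3% to 52.2% of these bases, with a median of 25.6% over all nuclear IDR peaks, and the upstream site of gpd-1 was the highest.

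Other genes of sugar metabolism were placed beside these by a list of 35 names. An IDR peak lay in the window of 8 of them (22.9%), against 8.23% of protein-coding genes, and the median of their highest pooled signal was 48.8. Of the other 9 genes of glycolysis, only pyk-1, which encodes pyruvate kinase, had one, with a signal of 86.3 at 161 bp past the 3′ end. The hexokinase gene hxk-1 just missed the list with 73.75, and the other pyruvate kinase gene, pyk-2, had no candidate. None of the 5 gluconeogenesis genes had an IDR peak, and of 4 genes of the pyruvate dehydrogenase complex only pdha-1 had one, with 88.4 at 70 bp from the start.

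The pentose phosphate pathway, which branches from glucose-6-phosphate, had 2 of 3 genes with an IDR peak. These were the transketolase gene tkt-1, with a signal of 123.0, and the transaldolase gene tald-1, with 231.8, which was above every glycolytic gene. The citric acid cycle had 4 of 14, the citrate synthase gene cts-1 with 129.3, the aconitase gene aco-2 with 179.1, and the malate dehydrogenase genes mdh-1 with 82.0 and mdh-2 with 111.0. In all 6 the highest summit lay past the 3′ end. The distance was 132 bp at tkt-1 and 145 bp at tald-1. It was 43 bp at cts-1, 56 bp at aco-2, 179 bp at mdh-1 and 199 bp at mdh-2. Over all protein-coding genes, 42.8% of the pairs of an IDR peak and a gene were downstream. The peak of pyk-1 also lay past the 3′ end, while that of pdha-1 lay inside the gene, 70 bp from the start. Whether these 6 summits also lay in the window of another gene was not tested. The strongest sites of aldo-2 and enol-1 lay 110 bp and 41 bp past the 3′ end, although that at aldo-2 also lay in a coding exon of F01F1.3. Those of gpi-1 and gpd-1 did not, at 1 bp from the start of gpi-1 and 280 bp before the start of gpd-1.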

How the data were processed

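HRDE-1 ChIP-seq sites of 1 group with 2 biological replicates were analysed on build ce11. Per the deposited file lists, the authors called candidates from each replicate and from pooled reads against a control, and thresholded them by IDR. The sources used here name no aligner, peak caller or IDR limit. The signal of each site is a score as the authors deposited it, used only within a list. The lists hold no read counts, so the depth is unknown and no interval is given. Lists on ce10 were not used. The summit is the interval start plus the summit offset, counted from 1. Genes are those of Ensembl release 115 for WBcel235, and a site belongs to a gene when its summit lies within 500 bp of it. Ranks among genes use the highest signal per window. Identities come from global alignments (Biopython 1.88), predicted proteins from translated coding sequences, and word counts from the RefSeq genome. Calculations used Python 3.11.15, pandas 2.3.3 and numpy 2.4.6, and the assignment was tested on simulated data. The members and the 35 further genes were chosen with earlier results of these data known. All 10 members are named, and no p-value was computed. Alternatives were other windows, interval overlap, the stronger IDR peaks, each replicate alone, other sets of genes as background, and RefSeq gene ends.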

Additional observations from a re-analysis of the deposited data

How the results depend on the processing

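The number of glycolytic genes with an IDR peak was 4 in the main analysis and 1 with the gene body alone (gpi-1). It was 3 with flanks of 200 bp, where gpd-1 dropped out, and 5 with flanks of 1000 bp, where pgk-1 joined. The summits of gpd-1 lay 280 bp before its start and 247 bp past its 3′ end. With the gene body alone gpd-1 had no pooled candidate and gpd-4 had 47.3, so the contrast between these copies rests on the flanks. The number was 4 with interval overlap, with the stronger 670 IDR peaks, and with RefSeq gene ends, an alternative chosen after seeing the data. It was also 4 with the strongest 1341 candidates of replicate 1 alone, or of replicate 2 alone, in place of IDR peaks. The share of protein-coding genes with an IDR peak was 8.23% in the main analysis, 3.16% with the gene body alone, 6.33% with flanks of 200 bp, 9.27% with flanks of 1000 bp, 4.28% with the stronger 670 peaks and 14.8% among genes with a pooled candidate. With the strongest 1341 candidates of 1 replicate in place of IDR peaks, the share was 8.36% for replicate 1 and 8.14% for replicate 2. Glycolytic genes with a candidate in both replicates numbered 8 in the main analysis, 5 with the gene body alone, and 4 with the strongest 1341 candidates of each replicate. Fewer bases are searched with the gene body alone, which leaves out the sites past the 3′ ends. No paired analysis was possible because there is 1 group. With 2 replicates, unknown depth and lists that begin at a limit, a gene without a candidate cannot be told from one just under the limit.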
